A study of Mus musculus with 46 samples.

Results

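Solute carriers are the membrane proteins that move amino acids, sugars, vitamins, nucleosides, inorganic ions and metals into and out of cells and organelles, and they are numbered by family (the Slc genes). In the lung they supply amino acids for protein and glutathione synthesis, recycle iron in macrophages and move ions and fluid across the alveolar epithelium. The transcription factor NRF2, encoded by Nfe2l2, binds antioxidant response elements and drives antioxidant, detoxification and iron-handling genes, of which the iron exporter Slc40a1 is known as one in macrophages. Breathing pure oxygen (hyperoxia) injures the alveolar wall and is followed by leukocyte influx.

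The genes described here are those with a symbol of the form Slc, number, a, number that were bright enough to follow. On the 3 array types, named A, B and C, 485 probe sets carried 1 such symbol and belonged to 284 genes. Slc7a11, Slc34a2 and Slc2a1 were left out. Each of the other 281 genes was represented by its brightest probe set, and the 211 genes whose mean intensity was 300 or more in at least 1 of the 8 groups were kept, of 15965 genes with a symbol of their own on the arrays. The other 70 stayed below the threshold: Slc38a3 and Slc25a21 lay just outside it, with highest group means of 290.2 and 288.4, and Slc6a11 and Slc35a2 just inside it, with 310.0 and 314.1. Of the 211 genes, 160 were at 300 or more in all 8 groups and 8 in only 1 group. All 211 were on the arrays bright enough to be tested. By what they carry, 43 handle amino acids and peptides, 34 belong to the mitochondrial carrier family, 29 handle inorganic ions, 26 vitamins, organic ions, amines or urea, 25 zinc, iron, copper or heme, 19 carboxylates, fatty acids, choline or bile acids, 19 sugars and polyols, and 9 nucleosides or nucleotide sugars. Of the others, 5 carry such a symbol without being carriers and 2 were not put in a class. Counts of carriers below are over all 211 genes and include these.

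RNA came from whole lung of Nrf2 mutant mice and of wild type mice, each before exposure (0 h) and after 24, 48 and 72 h in 100% oxygen, which makes 8 groups on 46 arrays. The labels give the mutant only as mutated in Nrf2, and name no allele, strain, age or sex. Every group had replicates 1a and 1b on each array type, except mutant 0 h and wild type 24 h, which had only replicate 1b on type A. The labels do not say whether the replicates are separate mice, so each p-value measures the spread between these samples, which may be technical.

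Values are the deposited linear intensities, which are relative to the array and not to the length of the transcript, so they were compared between groups and not between genes. Differences were tested by limma on log2 intensity after a small constant was added, with Benjamini-Hochberg adjustment over all 26821 probe sets tested, and a gene is called at an adjusted p under 0.05. Folds are on that scale and understate the change of dim genes. The Nfe2l2 probe set read 302.5 to 448.4 on the 7 type A arrays of the mutant, against 2428 to 4488 on the 7 of wild type. The 5 mutant 0 h arrays stood apart from the rest. Their mean correlation with the other arrays was 0.827 to 0.858, against 0.879 to 0.940 for the other 41 arrays, and the ratio of 3' to 5' Gapdh signal, a sign of RNA integrity, was 1.67 to 2.26, against 0.858 to 1.54. At 0 h, 6 of 8 skeletal muscle markers were higher in the mutant, and the type A sum of that list was 26937 on the mutant array, against 2754 and 2793 on the wild type arrays. Of 7 squamous epithelium markers tested, 4 were higher in the mutant at 0 h, with a type A sum of 41852, against 2305 and 2864 in wild type. Deposited values have at most 6 decimals on 7 arrays, the 5 of mutant 0 h and those of wild type 24 h replicate 1a, and 16 or 17 on the others. Changes in the mutant are therefore given mainly between 72 h and 24 h of oxygen, and those against mutant 0 h with their values against wild type 0 h.

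**Figure D1:**
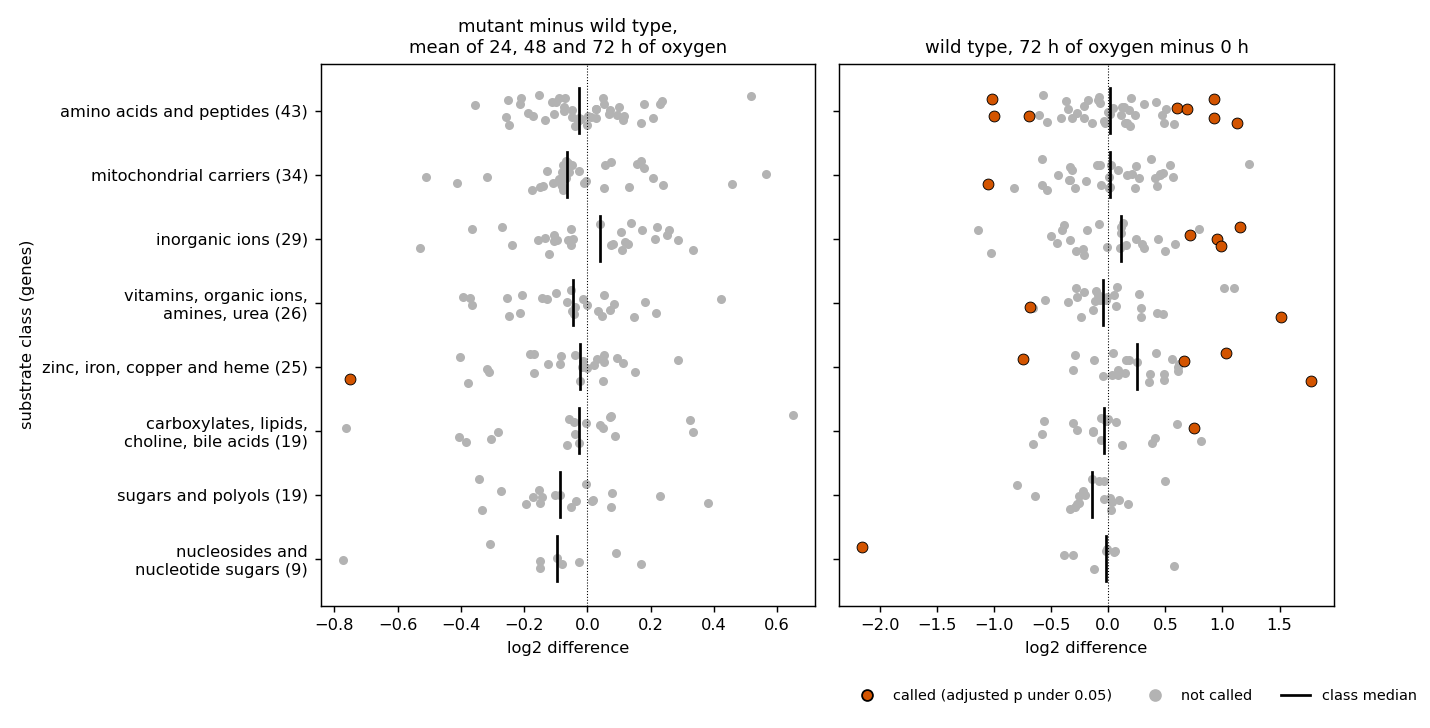
Log2 differences of solute carrier genes by substrate class, 1 point per gene, for mutant minus wild type over the oxygen times (left) and for 72 h of oxygen minus 0 h in wild type (right), with orange points for genes called at an adjusted p under 0.05 and a bar at each class median. A single gene, Slc40a1 at -0.75, is called on the left; on the right 14 genes are called above 0 and 7 below it.

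Between genotypes in oxygen, the iron exporter Slc40a1 was the only solute carrier called. Slc40a1 encodes ferroportin, through which cells release iron. Averaged over 24, 48 and 72 h of oxygen it was 1.68-fold lower in the mutant (log2 difference -0.75 ± 0.10 (SE), adjusted p = 0.00203). It was 1 of 211 carriers called in that comparison, where 1.25% of all probe sets were called. Without wild type 24 h replicate 1a, 2 carriers were called. The median difference of the 211 genes was -0.04, against -0.01 over all probe sets tested, and 22 carriers had an unadjusted p under 0.05. The class medians ran from -0.10 for the nucleoside and nucleotide sugar carriers to 0.04 for the inorganic ion carriers. For 204 of the 211 genes the 95% confidence interval of this averaged difference lay within 2-fold either way, and for 151 within 1.5-fold. Its median half-width was 0.31 on the log2 scale. The average can hide differences that change sign between times. At 24, 48 and 72 h taken singly, the interval lay within 2-fold for 142, 153 and 148 genes, and within 1.5-fold for 38, 49 and 55. The median half-widths were 0.56, 0.54 and 0.54.

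The Slc40a1 gene lies on mouse chromosome 1 (GRCm38.p6, 45908070 to 45926532) and was measured by a single probe set, on array type B. In the mutant it read 1161 and 1173 at 0 h, 2122 and 1798 at 24 h, 974 and 929 at 48 h and 1376 and 1395 at 72 h. In wild type it read 1731 and 1669 at 0 h, 1968 and 1438 at 24 h, 2397 and 2148 at 48 h and 3834 and 3386 at 72 h. The mutant arrays overlapped those of wild type at 24 h, lay below them at 0, 48 and 72 h, and at 72 h were below every wild type array at any time.

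At 48 h Slc40a1 was 2.22-fold lower in the mutant (log2 difference -1.15 ± 0.17 (SE), adjusted p = 0.0109), and at 72 h 2.47-fold lower (log2 difference -1.30 ± 0.17 (SE), adjusted p = 0.00354). It was the only carrier called at either time, where 0.377% and 0.820% of all probe sets were called. At 24 h the difference was 0.20, with a 95% interval of -0.17 to 0.57. Wild type lungs had a higher Slc40a1 level at 72 h than at 0 h (log2 difference 1.03 ± 0.17 (SE), adjusted p = 0.00358) and than at 24 h (log2 difference 1.04 ± 0.17 (SE), adjusted p = 0.0127), a comparison in which 5 carriers and 1.5% of all probe sets were called. In the mutant, 72 h differed from 24 h by -0.46, which did not pass (adjusted p = 0.153). The difference between the genotypes in this 24 to 72 h change was -1.50 ± 0.24 (SE), which passed (adjusted p = 0.0404), as 1 carrier of 211, where 0.112% of all probe sets passed. The call at 48 h was lost when any of the 4 arrays compared was left out (adjusted p = 0.0853 to 0.124), while those at 72 h and over the oxygen times held without each replicate in turn. With only the arrays of both 72 h groups in the fit the call at 72 h was lost (adjusted p = 0.109). The call on the difference between the genotypes in the 24 to 72 h change was lost without each of 15 of the 16 replicates (adjusted p = 0.0541 to 0.221).

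Neutrophil markers were also lower in the mutant at the later times. Of 6 neutrophil markers, 5 were lower in the mutant at 48 h and 3 at 72 h, and the type A sum of the list at 72 h was 5494 and 6422 on the mutant arrays, against 17429 and 18257 on the wild type arrays. At 24 h, where Slc40a1 was not called, the sum was 19005 and 20716 on the mutant arrays, against 8892 on the single wild type array, and 1 marker was called higher. Of 6 macrophage markers, the scavenger receptor Marco was lower in the mutant over the oxygen times (log2 difference -1.42, adjusted p = 0.000139) and the others were not called. The macrophage sum ran the other way from Slc40a1 at 72 h, at 18810 and 20621 on the mutant arrays, against 15944 and 17428 on the wild type arrays. In whole lung, fewer cells of a type and less RNA per cell cannot be told apart, and the part of either cell type in the Slc40a1 difference was not tested.

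**Figure D2:**
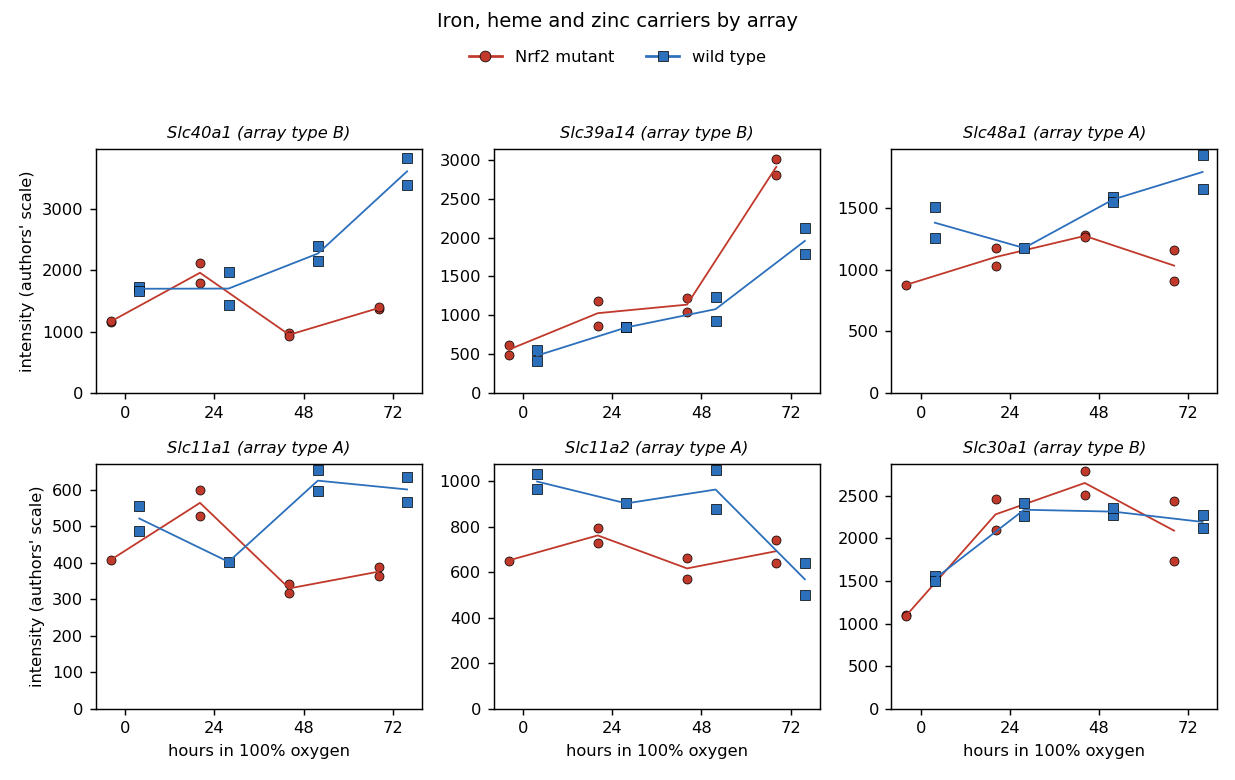
Intensity of 6 iron, heme and zinc carriers on each array against hours in 100% oxygen, with circles for the Nrf2 mutant, squares for wild type, lines through the group means and points of the genotypes drawn slightly apart. At 72 h the Slc40a1 points are 1376 and 1395 in the mutant and 3834 and 3386 in wild type, and Slc39a14 is higher at 72 h than at 0 h in both genotypes.

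Among the other metal carriers, the heme transporter Slc48a1, which returns heme from the phagolysosome to the cytosol, and Slc11a1, the divalent metal transporter of the phagosome, had lower values in the mutant at 48 and 72 h without passing the test. Slc48a1 at 72 h read 1159 and 906 in the mutant, against 1653 and 1926 in wild type (adjusted p = 0.103). Slc11a1 read 342 and 318 at 48 h and 388 and 363 at 72 h in the mutant, against 596 and 653 at 48 h and 634 and 567 at 72 h in wild type (adjusted p = 0.0699 at 48 h and 0.167 at 72 h). For both genes the arrays of the genotypes did not overlap at these times. The share of all probe sets without overlap was not counted, so this adds no support. Of the 25 genes of the class, only Slc40a1 was called at either time. The class median was 0.04 at 48 h and -0.09 at 72 h. At 24 h Slc11a1 ran the other way, with 529 and 599 in the mutant, against 402 on the single wild type array.

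At 24 h no carrier was called between genotypes by limma, where 0.157% of all probe sets were. Of the 211, 20 (9.48%) had an unadjusted p under 0.05, against 9.76% of all probe sets. At 0 h the mitochondrial dicarboxylate carrier Slc25a10 was the only one called, where 2.75% of all probe sets were. It read 243 on the single type A array of the mutant, against 796 and 967 on those of wild type (log2 difference -1.57 ± 0.23 (SE), adjusted p = 0.00809). On the 6 mutant arrays in oxygen Slc25a10 read 638.5 to 1066.1, so the low value stood on 1 array of the group that differed from the rest.

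In wild type lung the changes of the carriers were called at 48 and 72 h. At 24 h of oxygen none was called against 0 h by limma, where 1.72% of all probe sets were. An unadjusted p under 0.05 was reached by 34 carriers (16.1%), against 14.9% of all probe sets. At 48 h, 8 were higher, where 3.28% of all probe sets were, and 1 was lower, where 3.4% were. In either direction that is 4.27% of the carriers, against 6.68% of all probe sets. At 72 h, 14 were higher, where 4.27% of all probe sets were, and 7 were lower, where 3.59% were. In either direction that is 9.95% of the carriers, against 7.86% of all probe sets. The call counts at 48 h dropped to 2 and 1 without wild type 0 h replicate 1a and 1b, and to 0 and 2 without wild type 48 h replicate 1a and 1b. The shares at both times are near those of all probe sets, so the changes are described gene by gene. By class at 72 h, 5 amino acid carriers were higher and 3 lower, 4 inorganic ion carriers were higher, and 3 metal carriers were higher and 1 lower. None of the 19 sugar carriers was called, and 1 of the 34 mitochondrial carriers was. The zinc, iron, copper and heme class had a median of 0.25 and the sugar class a median of -0.14 at 72 h, against 0.005 over all 211 carriers and -0.06 over all probe sets.

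Slc39a14, a zinc importer (ZIP14) that also takes up iron and manganese and is induced in the acute phase response of the liver, had the largest rise among the carriers in wild type. The gene lies on chromosome 14 (70303467 to 70351452). In the mutant it read 496 and 621 at 0 h, 866 and 1190 at 24 h, 1047 and 1229 at 48 h and 3011 and 2805 at 72 h. In wild type it read 557 and 411 at 0 h, 846 and 845 at 24 h, 1238 and 922 at 48 h and 2122 and 1790.1 at 72 h. Both 72 h arrays of each genotype lay above all earlier arrays of that genotype.

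The wild type level at 72 h was 3.43-fold that at 0 h (log2 difference 1.78 ± 0.21 (SE), adjusted p = 0.000314), and at 48 h it was already 1.98-fold (log2 difference 0.98 ± 0.21 (SE), adjusted p = 0.0152). In the mutant the level at 72 h was 2.65-fold that at 24 h (log2 difference 1.41 ± 0.21 (SE), adjusted p = 0.00272). The genotypes at 72 h differed by 0.55, without passing (adjusted p = 0.38). The rise was seen on the brightest of 3 Slc39a14 probe sets, all on type B. The dimmer ones gave -0.61 and -0.22 for the same wild type comparison and were not called.

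The other metal carriers called in wild type at 72 h were Slc40a1, Slc30a7 and Slc11a2. Slc30a7 loads zinc into the early secretory pathway and was named after its values were seen. It read 1446 and 1549 at 72 h, against 937 and 860.1 at 0 h (log2 difference 0.66 ± 0.18 (SE), adjusted p = 0.0464). Another Slc30a7 probe set gave -0.33 and was not called. Slc11a2 (DMT1), which imports ferrous iron across the plasma and endosomal membranes, fell to 498 and 640 at 72 h, against 964 and 1033 at 0 h (log2 difference -0.74 ± 0.17 (SE), adjusted p = 0.0285). Another Slc11a2 probe set gave -0.21. The zinc exporter Slc30a1 read 2117 and 2269 at 72 h, against 1554 and 1499 at 0 h, and did not pass (adjusted p = 0.117). The zinc importers Slc39a3 and Slc39a4 moved by 0.04 and 0.41 and were not called. Their other probe sets were not called in wild type at 72 h either, but a type A probe set for Slc39a3 was higher at 48 h (0.81, adjusted p = 0.0253), and one for Slc39a4 was lower in the mutant at 72 h than at 24 h (-1.59, adjusted p = 0.00219).

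**Figure D3:**
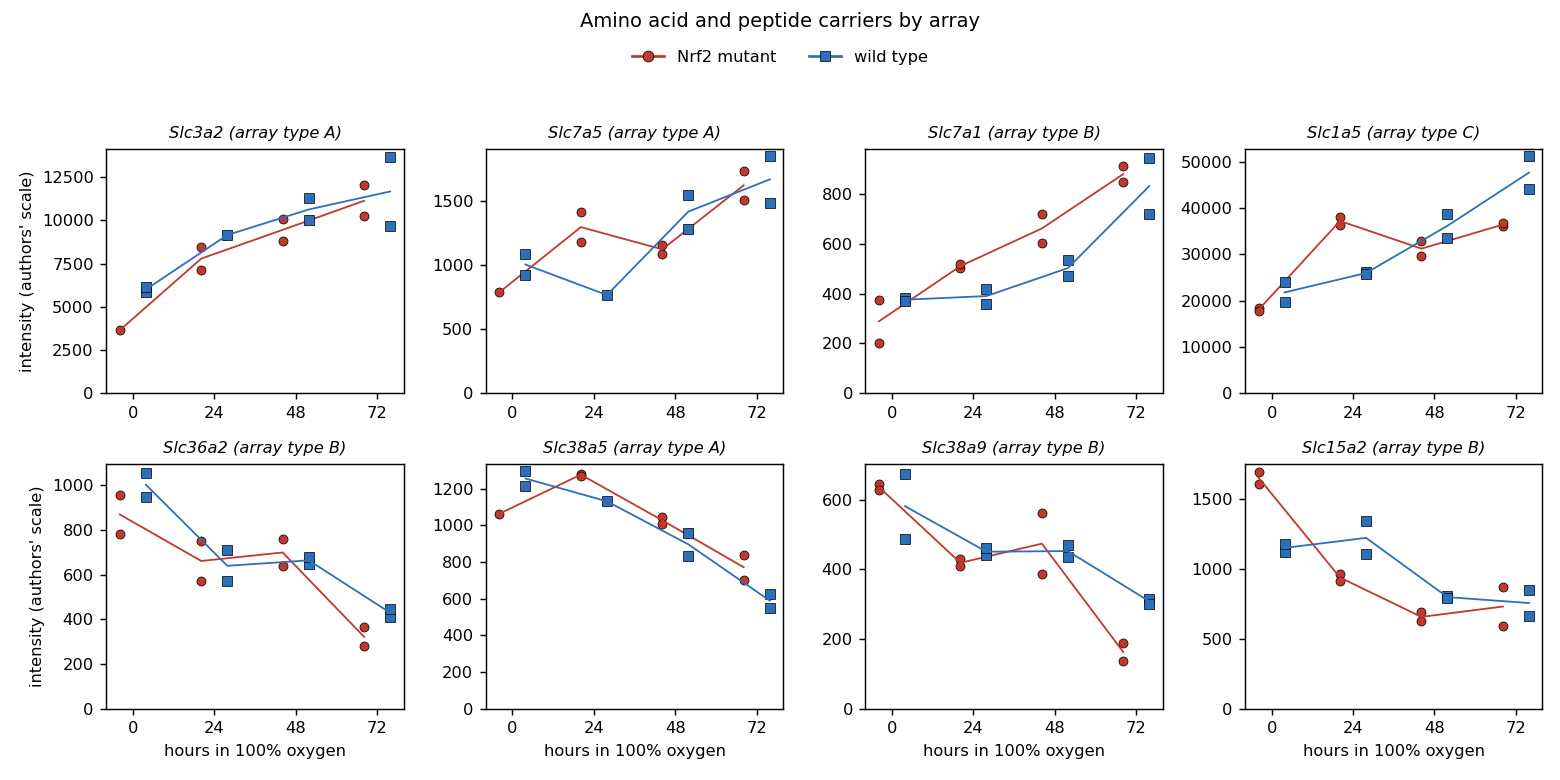
Intensity of 8 amino acid and peptide carriers on each array against hours in 100% oxygen, with circles for the Nrf2 mutant, squares for wild type and lines through the group means. In wild type, the 4 genes of the top row are higher at 72 h than at 0 h, and Slc36a2, Slc38a5 and Slc38a9 of the bottom row are lower.

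The amino acid carriers called higher in wild type at 72 h were Slc3a2, Slc7a5, Slc7a1, Slc7a2 and Slc1a5. Of the 43 genes of the class, 35 were not called at that time, and the class median was 0.02. Slc3a2 (CD98) is the heavy chain that brings several light chains to the cell surface, among them Slc7a5 (LAT1), which exchanges leucine and other large neutral amino acids. Slc7a1 and Slc7a2 carry arginine and lysine, and Slc1a5 (ASCT2) exchanges glutamine and other neutral amino acids.

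Slc3a2 read 9689.8 and 13645 in wild type at 72 h, against 5870 and 6129.6 at 0 h (log2 difference 0.93 ± 0.20 (SE), adjusted p = 0.0179). Slc7a5 read 1855 and 1484 at 72 h, against 1084 and 925 at 0 h (log2 difference 0.69 ± 0.18 (SE), adjusted p = 0.0467). Slc7a1 read 945 and 718 at 72 h, against 382 and 369 at 0 h (log2 difference 0.92 ± 0.20 (SE), adjusted p = 0.0164). For these 3 genes both 72 h arrays were above both 0 h arrays. Slc1a5 read 44165 and 51196 at 72 h, against 19661 and 23939 at 0 h (log2 difference 1.13 ± 0.23 (SE), adjusted p = 0.0105), on a probe set that the array design marks as shared by related sequences. A type A probe set for Slc1a5 gave 1.42 (adjusted p = 0.00111), and another on type C gave 0.63 (adjusted p = 0.234). A dim second probe set for Slc3a2 gave 0.07 and was not called. Slc7a2, named after its values were seen, read 1329.7 and 1210.4 at 72 h, against 747 and 839 at 0 h (log2 difference 0.60 ± 0.17 (SE), adjusted p = 0.0468), and its other probe set gave 0.35 and was not called.

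At 48 h in wild type, Slc3a2 was already higher than at 0 h (log2 difference 0.81 ± 0.20 (SE), adjusted p = 0.0364). So were Slc7a2 (0.67) and the creatine carrier Slc6a8, with 788 and 754 at 48 h, against 394 and 477 at 0 h (log2 difference 0.73, adjusted p = 0.0461). Slc6a8 was named after its values were seen, and its other probe set gave 0.45 (adjusted p = 0.243). No difference between the genotypes was called for these genes. Over the oxygen times the mutant differed from wild type by -0.15 for Slc3a2, with a 95% interval of -0.42 to 0.12, and by 0.12 for Slc7a5, with an interval of -0.14 to 0.37.

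The amino acid carriers that fell were Slc36a2, a proton-coupled carrier of glycine, proline and alanine, Slc38a5, which carries glutamine, asparagine and histidine, and Slc38a9, the lysosomal arginine sensor of the mTORC1 pathway. Slc36a2 read 411 and 448 in wild type at 72 h, against 1055 and 949 at 0 h (log2 difference -1.02 ± 0.18 (SE), adjusted p = 0.00541). In the mutant it read 364 and 279.6 at 72 h, against 749 and 573 at 24 h (log2 difference -0.81 ± 0.18 (SE), adjusted p = 0.0253). Slc38a5 read 627 and 552 in wild type at 72 h, against 1215 and 1297 at 0 h (log2 difference -0.9996 ± 0.16 (SE), adjusted p = 0.00391). On these probe sets all 3 genes fell in both genotypes. In the mutant Slc38a5 read 839.5 and 705 at 72 h, against 1283 and 1271 at 24 h, and Slc38a9 read 188 and 138 at 72 h, against 429 and 409 at 24 h (log2 difference -0.68 and -0.92). Slc38a9 in wild type read 315 and 302 at 72 h, against 488 and 676 at 0 h (log2 difference -0.69 ± 0.19 (SE), adjusted p = 0.0404). The 3 other Slc38a9 probe sets, on type C, were not called and did not run one way, with 0.32, -0.20 and -0.60 for the same comparison in wild type and -0.37, -1.09 and 0.80 between 72 and 24 h in the mutant. Slc36a2 and Slc38a5 had no other probe set tested.

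Among other amino acid and peptide carriers of the lung epithelium, the probe sets of Slc15a2 and Slc6a14 differed in their calls in wild type at 72 h. The peptide carrier Slc15a2 of the alveolar type 2 cell read 663 and 851 at 72 h, against 1125 and 1178 at 0 h on its brightest probe set (log2 difference -0.54, adjusted p = 0.104). Its type A probe set was called lower at 72 h (-0.82, adjusted p = 0.0131) and at 48 h (-0.82, adjusted p = 0.0158), and in the mutant at 72 h against 24 h (-0.97, adjusted p = 0.00894). The broad amino acid carrier Slc6a14 gave 0.32 on its brightest probe set, without a call, and 1.18 on one of type C, which was called higher (adjusted p = 0.0443). The taurine carrier Slc6a6 gave 0.02 and -0.71 on its probe sets, neither called.

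**Figure D4:**
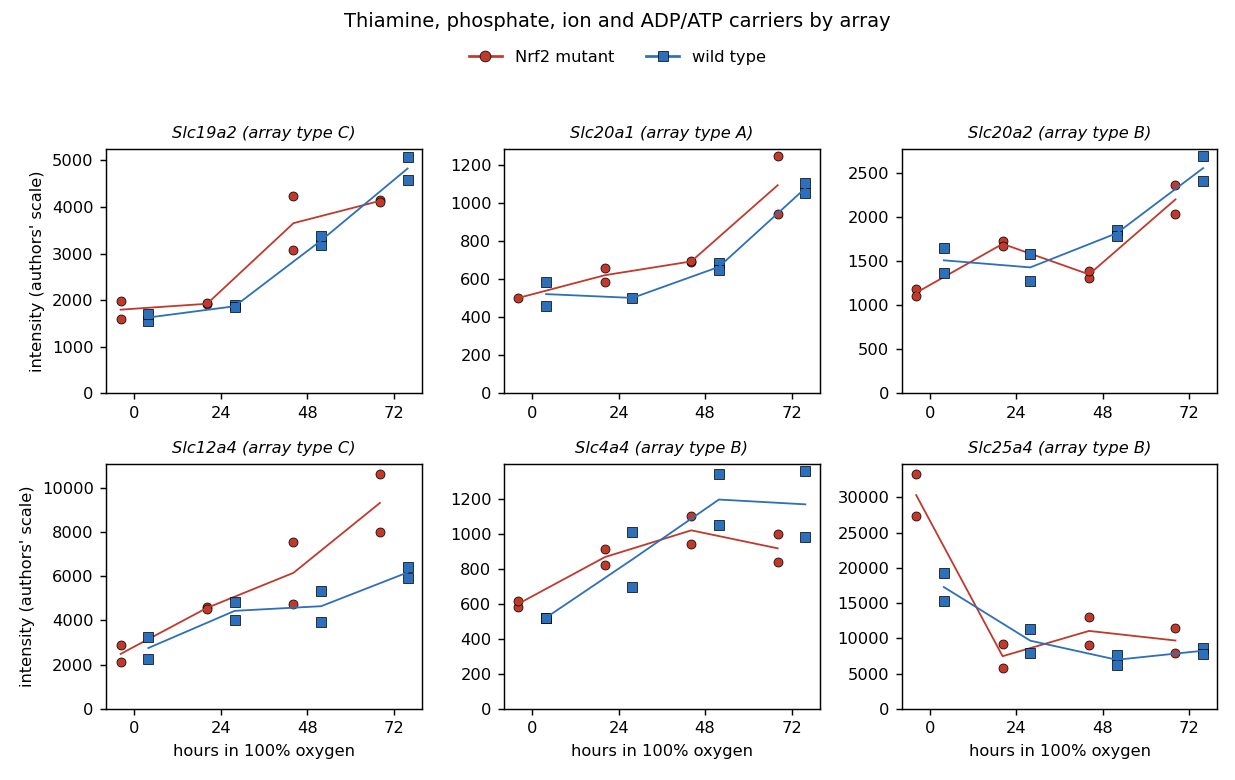
Intensity of the thiamine carrier Slc19a2, the phosphate carriers Slc20a1 and Slc20a2, the ion carriers Slc12a4 and Slc4a4 and the ADP/ATP carrier Slc25a4 on each array against hours in 100% oxygen, with circles for the Nrf2 mutant, squares for wild type and lines through the group means. Slc25a4 is at 27304 and 33332 on the mutant 0 h arrays and at or below 12997 on all arrays in oxygen.

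Slc19a2, a plasma membrane thiamine carrier, rose in both genotypes. The gene lies on chromosome 1 (164249046 to 164265385). In the mutant it read 1603 and 1987 at 0 h, 1907 and 1936 at 24 h, 3071 and 4234 at 48 h and 4148 and 4114 at 72 h. In wild type it read 1545 and 1708 at 0 h, 1893 and 1844 at 24 h, 3190.3 and 3370.3 at 48 h and 5076 and 4574 at 72 h. All 48 and 72 h arrays were above all 0 and 24 h arrays of both genotypes.

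Slc19a2 in wild type was 1.96-fold its 0 h level at 48 h (adjusted p = 0.0327) and 2.85-fold at 72 h (log2 difference 1.51 ± 0.24 (SE), adjusted p = 0.00278). In the mutant it was 2.09-fold higher at 72 h than at 24 h (log2 difference 1.06 ± 0.24 (SE), adjusted p = 0.0253). This call and that of wild type at 48 h were each lost without 4 of the 16 replicates. Among the other carriers of the vitamin and organic ion class, the organic cation carrier Slc22a2 fell in wild type, with 156 and 132 at 72 h, against 295 and 263 at 0 h (adjusted p = 0.0329), all below the threshold of 300. The lysosomal carrier Slc46a3 was called in wild type between 72 and 24 h, with 2320 and 2113 at 72 h, against 1124 and 1030 at 24 h (log2 difference 0.96 ± 0.21 (SE), adjusted p = 0.0439). Its 0 h arrays, at 2289 and 1977, were near those of 72 h. This call was lost without 12 of the 16 replicates (adjusted p = 0.0559 to 0.263). The carnitine carrier Slc22a5 differed by -0.02 in wild type at 72 h and was not called.

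The inorganic ion carriers that rose in wild type at 72 h were 4. Slc20a1 and Slc20a2 bring phosphate into cells with sodium, Slc12a4 (KCC1) lets potassium and chloride out together in cell volume control, and Slc4a4 moves sodium with bicarbonate. Slc20a1 read 1052 and 1107 at 72 h, against 585 and 459 at 0 h (log2 difference 0.95 ± 0.18 (SE), adjusted p = 0.00952). In the mutant it was higher at 72 h than at 24 h (log2 difference 0.74 ± 0.18 (SE), adjusted p = 0.0414), with 1248 and 942 at 72 h, against 659 and 584 at 24 h. Slc20a2 read 2410 and 2694 in wild type at 72 h, against 1649.9 and 1364 at 0 h (log2 difference 0.72 ± 0.17 (SE), adjusted p = 0.0203). The arrays of the times compared did not overlap for either gene.

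Slc12a4 read 6402 and 5928 in wild type at 72 h, against 2250 and 3246 at 0 h (log2 difference 1.16 ± 0.31 (SE), adjusted p = 0.0422), on a probe set marked as shared by related sequences. A type A probe set gave 0.83 and just missed the threshold (adjusted p = 0.0514). Slc4a4 read 1355 and 979 at 72 h, against 520.2 and 521 at 0 h (log2 difference 0.98 ± 0.21 (SE), adjusted p = 0.0122). Its other probe sets gave 0.25, 0.81 and 0.74 and were not called. Slc12a7 (KCC4), a relative of Slc12a4, was higher in wild type at 48 h, with 1382 and 1281 at 48 h, against 715 and 659 at 0 h (log2 difference 0.88 ± 0.16 (SE), adjusted p = 0.00985), and read 854 and 889.6 at 72 h. The sodium, potassium and chloride importer Slc12a2 and the anion exchanger Slc4a1 of red cells moved by 0.30 and 0.24 at 72 h and were not called. The Slc4a1 value had no stable direction and ran from -0.465 to 0.952 over the alternative settings. A dimmer type A probe set for Slc4a1 was called lower (-0.97, adjusted p = 0.0354). The sodium pump sets the sodium gradient that many carriers use. Of its subunits, 6 were tested (Atp1b1, Atp1b2, Atp1b3, Fxyd1, Fxyd3 and Fxyd5), none of them the catalytic alpha subunit. Fxyd1 (-0.87, adjusted p = 0.00875) and Fxyd3 (-0.93, adjusted p = 0.00547) were lower in wild type at 72 h and the others were not called.

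The mitochondrial ADP/ATP carrier Slc25a4, which is the form of heart and skeletal muscle, fell in wild type. It read 8687 and 7788 at 72 h, against 15239 and 19301 at 0 h (log2 difference -1.05 ± 0.28 (SE), adjusted p = 0.0385), and 6267 and 7648 at 48 h (log2 difference -1.29 ± 0.28 (SE), adjusted p = 0.0174). A type A probe set for Slc25a4 gave -0.34 at 72 h and was not called (adjusted p = 0.304). Muscle markers moved along with it. Of 6 heart muscle markers 5 were lower in wild type at 72 h, and their type A sum was 7535 and 7819 at 72 h, against 26500 and 26640 at 0 h. Of 8 skeletal muscle markers 3 were lower at 72 h and 4 at 48 h, and their type A sum was 648 and 743 at 72 h, against 2754 and 2793 at 0 h. The part of either muscle in the Slc25a4 change was not tested. Slc25a10, the dicarboxylate carrier, was not called at 72 h on its brightest probe set (-0.32), and a dimmer one on type B was called lower (-0.81, adjusted p = 0.0470).

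Of the remaining classes, Slc10a6, a sodium-dependent carrier of sulfated steroids, rose in wild type at 48 h (0.62) and at 72 h. It read 1261 and 1395 at 72 h, against 769 and 749 at 0 h (log2 difference 0.75 ± 0.14 (SE), adjusted p = 0.0116). Slc35a4, grouped with the nucleotide sugar carriers of the Golgi, had the largest fall among the carriers (log2 difference -2.16 ± 0.49 (SE), adjusted p = 0.0176). Its wild type replicates were far apart, with 481 and 1464 at 72 h, against 3629 and 5001 at 0 h, and its other probe set gave -0.10. The glucose carrier Slc2a3 read 519 and 412 at 72 h, against 583 and 533 at 0 h, and was not called (adjusted p = 0.707). The choline-like carrier Slc44a4 moved by -0.06.

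Of these calls in wild type at 72 h, those of Slc39a14, Slc19a2, Slc40a1, Slc36a2 and Slc38a5 held when each replicate of any group was left out in turn. The call of Slc7a5 was lost without 12 of the 16 replicates, that of Slc12a4 without 10 and that of Slc38a9 without 9. The number of carriers called dropped to 9 and 7 without wild type 0 h replicate 1a and 1b, and to 10 and 8 without wild type 72 h replicate 1a and 1b.

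**Figure D5:**
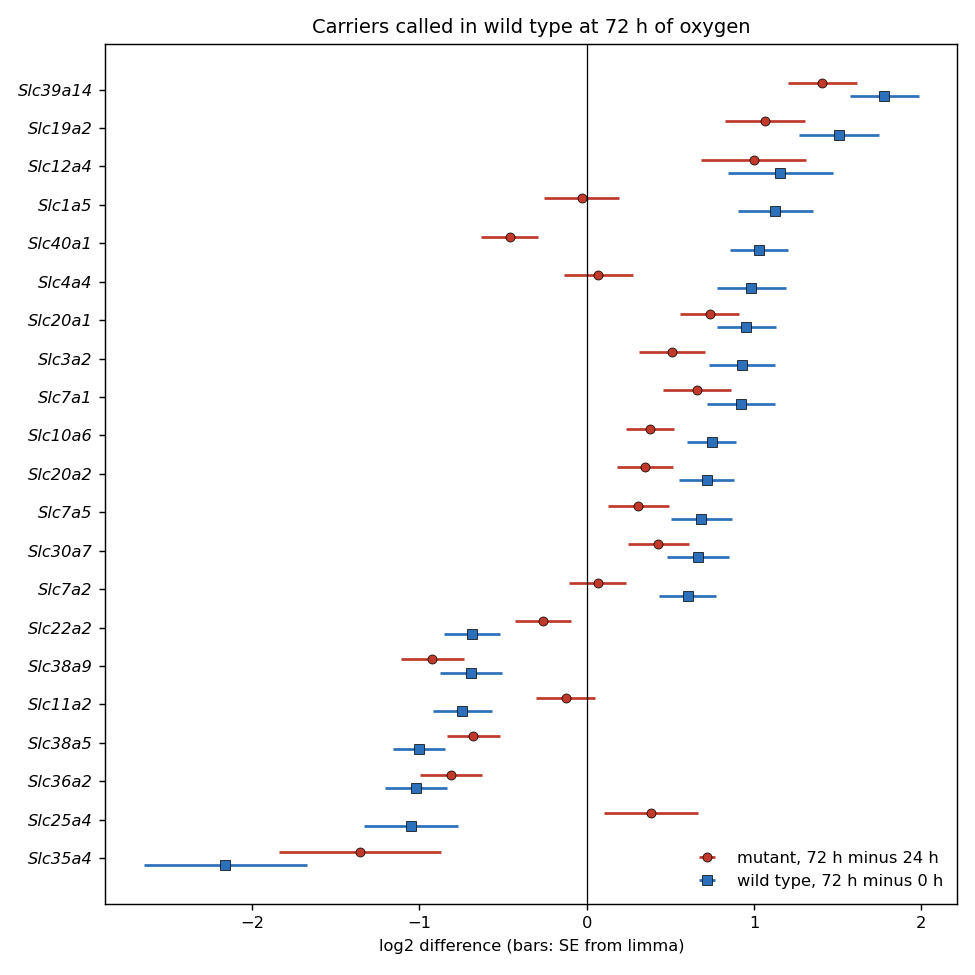
Log2 differences with SE (limma) of the 21 carriers called in wild type at 72 h of oxygen against 0 h (squares), with the difference between 72 and 24 h of oxygen in the mutant (circles). Slc39a14, Slc19a2 and Slc20a1 are called upwards and Slc36a2, Slc38a5 and Slc38a9 downwards in both, while Slc40a1 is at -0.46 in the mutant and 1.03 in wild type.

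In the mutant, 4 carriers were higher at 72 h than at 24 h, where 2.4% of all probe sets were, and 7 were lower, where 2.65% were. In either direction that is 5.21% of the carriers, against 5.05% of all probe sets. No array is shared with the comparison of 72 h with 0 h in wild type, but both use the same estimate of the spread for each probe set. The overlap of these comparisons over all probe sets was not counted, so the shared calls are listed and not read as a shared response. Called the same way in both were Slc39a14, Slc19a2 and Slc20a1 upwards, 3 of the 4 in the mutant and 3 of the 14 in wild type, and Slc36a2, Slc38a5 and Slc38a9 downwards, 3 of the 7 in each. The fourth gene that rose in the mutant was Slc25a38, the mitochondrial glycine carrier of heme synthesis. It read 909 and 774 at 72 h, against 483 and 151 at 24 h (log2 difference 1.23 ± 0.31 (SE), adjusted p = 0.0417), and its 24 h arrays were far apart.

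Slc16a9, described as a carnitine exporter, fell to 11882 and 10758 in the mutant at 72 h, against 33496 and 30076 at 24 h (log2 difference -1.48 ± 0.27 (SE), adjusted p = 0.00918). A probe set on type B gave -1.40 (adjusted p = 0.0114). In wild type Slc16a9 read 22347 and 22534 at 72 h, against 35320 and 32946 at 24 h (log2 difference -0.60, adjusted p = 0.348). The difference between the genotypes in this change was -0.88 and did not pass (adjusted p = 0.646). Embigin (Emb), a chaperone of the monocarboxylate carriers of the same family, was lower in the mutant at 72 h than at 24 h (-1.16, adjusted p = 0.00384). Basigin (Bsg), the other such chaperone, gave -0.18 in the same comparison and was not called (adjusted p = 0.761).

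Slc37a1, which can exchange glucose phosphate for phosphate in the endoplasmic reticulum, read 591 and 423 in the mutant at 72 h, against 1301 and 1302 at 24 h (log2 difference -1.19 ± 0.23 (SE), adjusted p = 0.0109), and its other probe set gave -0.37 without a call. The sodium bicarbonate carrier Slc4a5 read 147 and 293 at 72 h, against 655 and 521 at 24 h (log2 difference -1.20 ± 0.25 (SE), adjusted p = 0.0221). The riboflavin carrier Slc52a3 read 3699 and 3408 at 72 h, against 5412 and 5789.8 at 24 h (log2 difference -0.64 ± 0.17 (SE), adjusted p = 0.0481), and its other probe set gave -0.74 without a call. For these 3 genes the arrays of the times did not overlap, and the direction in wild type was the same for Slc37a1 (-0.68), Slc4a5 (-1.03) and Slc52a3 (-0.19), without a call. Of the 11 calls in the mutant, that of Slc39a14 held without each replicate in turn, while that of Slc52a3 was lost without 14 of the 16, Slc25a38 without 11, and Slc20a1 and Slc38a5 without 10 each. Those of Slc19a2 and Slc36a2 were lost without 4 each, and those of Slc16a9, Slc37a1, Slc38a9 and Slc4a5 without 3 each. The count dropped to 2 and 1 without mutant 24 h replicate 1a and 1b, and to 4 and 2 without mutant 72 h replicate 1a and 1b.

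Against mutant 0 h, more carriers were called, with 48 after the first day of oxygen (24.4% of all probe sets), 36 at 48 h (17.9%) and 39 at 72 h (21.6%). A gene bright at mutant 0 h alone was kept through that group, so its fall against it adds no support. Of the 211 carriers, 15, 9 and 15 fell at 24, 48 and 72 h. Among the 160 at 300 or more in all 8 groups, 10, 6 and 10 fell. With wild type 0 h in place of mutant 0 h, 13 carriers were called at 24 h (10.3% of all probe sets), 16 at 48 h (6.47%) and 23 at 72 h (12.9%). Both directions and calls held at 72 h for Slc39a14 (2.15 against mutant 0 h, 2.33 against wild type 0 h), Slc12a4 (1.87 and 1.73), Slc3a2 (1.58 and 0.88) and Slc38a9 (-1.41 and -1.29). The other Slc38a9 probe sets gave 1.03, -0.91 and 0.18 against mutant 0 h and were not called. The organic cation carrier Slc22a21, the vesicular glutamate carrier Slc17a6, Slc22a15 and Slc25a10 were among the largest rises against mutant 0 h and were not called against wild type 0 h. Slc25a10 at 48 h was 1.49 against mutant 0 h and -0.083 against wild type 0 h. Slc25a4 in the mutant read 9127 and 5799.6 at 24 h, against 27304 and 33332 at 0 h (log2 difference -2.03), and was also called against wild type 0 h (-1.22, adjusted p = 0.0171). Slc38a10, an amino acid carrier, read 2169 and 2177 at 24 h, against 739.9 on the single 0 h array, and was called against wild type 0 h too (0.63, adjusted p = 0.0341). The neutral amino acid carrier Slc7a10 read 68.0 and 118 at 48 h, against 399 and 611 at 0 h, but 126 and 101 in wild type at 0 h.

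Promoter sequences are shown for 4 of the genes that rose in wild type at 72 h, chosen after their values and motif matches were seen, because this is the stretch where response elements of the stress pathways can lie. Each runs 5′ to 3′ along its gene, from 250 bases before to 50 after the annotated start (RefSeq, GRCm38.p6), and capitals mark matches to the core TGACNNNGC of the antioxidant response element, searched on both strands. Slc3a2 lies at chr19:8713848-8714147 on the minus strand, Slc7a1 at chr5:148399855-148400154 on the minus strand, Slc20a1 at chr2:129206846-129207145 on the plus strand, which is its second start, and Slc19a2 at chr1:164248796-164249095 on the plus strand.
Slc3a2: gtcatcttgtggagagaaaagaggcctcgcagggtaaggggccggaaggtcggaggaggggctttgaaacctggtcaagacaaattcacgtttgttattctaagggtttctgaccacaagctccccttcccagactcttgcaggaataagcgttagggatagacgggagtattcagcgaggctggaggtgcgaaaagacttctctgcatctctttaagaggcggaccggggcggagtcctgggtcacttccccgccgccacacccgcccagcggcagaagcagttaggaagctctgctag
Slc7a1: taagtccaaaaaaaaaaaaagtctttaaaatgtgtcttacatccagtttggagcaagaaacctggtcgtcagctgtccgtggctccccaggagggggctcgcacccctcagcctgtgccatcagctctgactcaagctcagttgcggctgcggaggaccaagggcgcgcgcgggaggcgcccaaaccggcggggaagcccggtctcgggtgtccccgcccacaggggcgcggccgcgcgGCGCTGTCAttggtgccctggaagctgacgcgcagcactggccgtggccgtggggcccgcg
Slc20a1: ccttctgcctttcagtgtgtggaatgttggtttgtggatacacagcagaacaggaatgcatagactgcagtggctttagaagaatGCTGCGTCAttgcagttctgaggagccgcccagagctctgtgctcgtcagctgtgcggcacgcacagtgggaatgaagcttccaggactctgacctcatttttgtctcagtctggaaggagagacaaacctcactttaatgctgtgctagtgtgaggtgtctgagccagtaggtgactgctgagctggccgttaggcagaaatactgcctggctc
Slc19a2: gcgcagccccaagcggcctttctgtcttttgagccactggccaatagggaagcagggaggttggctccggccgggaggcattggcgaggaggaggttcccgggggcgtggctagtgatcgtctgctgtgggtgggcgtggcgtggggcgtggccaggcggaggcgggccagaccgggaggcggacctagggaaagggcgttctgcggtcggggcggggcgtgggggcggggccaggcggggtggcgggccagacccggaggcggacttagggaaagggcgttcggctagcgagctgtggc

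The Slc7a1 promoter has 1 match, 11 bases before the start, and that of Slc20a1 has 1, 165 bases before its start, both on the opposite strand. Slc7a1 and Slc20a1 each have another annotated start in the table, and the windows there hold no match. The Slc3a2 and Slc19a2 windows hold none. Of the 211 carriers, 163 were matched to a promoter in the RefSeq table by gene ID, and 33 of these (20.2%) held the core in at least 1 of their windows, against 14.0% of all genes with a promoter, counted the same way. Among the carriers that rose in wild type at 72 h, 8 had a promoter and 2 of them held it. Slc40a1 and Slc39a14 had no promoter there and were not searched. The core of the amino acid response element, TGATGNAA, was in 8 of the 163 carriers (4.91%) and in 0 of the 8 that rose, against 4.51% of all genes. A match to these letters is a description of the sequence and shows no binding.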

How the data were processed

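RNA of mouse lung was measured on 3 types of oligonucleotide array. The authors deposited a linear intensity for each probe set on each array. The sources used here name neither their software nor their genome build. The authors' scaling was kept. Replicate arrays 1a and 1b formed each group.

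To each intensity the 25th percentile of its array type was added before log2 (78.5, 126 and 106 for A, B and C), and a probe set had to pass the 40th percentile of its type on 2 or more arrays, with 198 control rows left out. Limma 3.58.1 in R 4.3.3 fitted 8 group means per array type, and p-values are two-sided. Where a group had a single array, its spread was taken from the other groups. The scripts were tested on simulated data.

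Gene symbols came from platform annotation, and positions and promoters from RefSeq. The members, classes and lists were chosen with earlier results of these data known. The classes of Slc4a1ap, Slc2a4rg-ps, Slc66a1 and Slc17a3 were set after the symbols were read. Genes named are the largest called changes of each comparison, the brightest in each class and a list of known carriers, except where stated. The alternatives were other filters, normalization, a replicate block, moderation options, leaving out each replicate, and 2 added after seeing the data, which replace or leave out the mutant 0 h arrays.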

Additional observations from a re-analysis of the deposited data

Results flagged for a closer look

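Slc40a1, the iron exporter ferroportin, changed differently in the genotypes between 24 and 72 h of oxygen. The difference of the changes, mutant minus wild type, was -1.50 on the log2 scale by limma (adjusted p = 0.0404). The mutant change was -0.46 and the wild type change 1.04, each over 4 arrays. The call rests on 8 arrays of 1 probe set and was lost in 17 of 24 alternative settings, where the adjusted p ranged up to 0.296 and the difference kept its sign. In the 15 settings that leave out a single replicate and lose the call, the adjusted p was 0.0541 to 0.221. Neutrophil markers moved with it, and their part in the result was not tested.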

How the results depend on the processing

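Of 68 called differences of named genes, 1 changed direction in the alternatives run: that of Slc25a10 in the mutant at 48 h was -0.083 on the log2 scale with wild type 0 h in place of mutant 0 h. Of 88 that were not called, 38 changed sign in at least 1 alternative, all of them 0.244 or less in size as reported, so no direction is read from these. Over the 156 together, 294 of the alternative values lost their call and 3 gained one. With the arrays of the 2 groups compared fitted alone, few residual degrees of freedom remain, and the carriers called were 0 for mutant against wild type at 48 h and at 72 h, 1 for wild type at 48 h and 1 at 72 h against 0 h, 19, 11 and 14 for the mutant at 24, 48 and 72 h, and 0 for 72 h against 24 h in either genotype and for the difference between the genotypes in that change. Without mutant 0 h arrays in the fit, chosen after seeing the data, that difference had 0 carriers called and wild type at 24 h had 1. With wild type 0 h in place of mutant 0 h, also chosen then, the mutant had 13, 16 and 23 at 24, 48 and 72 h.

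With the 60th percentile filter, 3 carriers were called between genotypes at 0 h, 3 at 48 h, 1 in wild type at 24 h and 12 between 72 and 24 h in wild type. Calls over all probe sets rose too. Of the 18706 left by this filter, 480 were higher and 524 lower at 0 h, against 393 and 345 of 26821 in the main fit. For the other 3 comparisons they were 69 and 102, 386 and 267, and 313 and 292, against 32 and 69, 258 and 204, and 230 and 173. With trend and robust moderation these were 3, 2, 1 and 12, with 2 between genotypes at 72 h and 17 for the mutant between 72 and 24 h. Quantile normalization gave 2 between genotypes at 0 h and 1 in wild type at 24 h. For the other alternatives of this section, calls over all probe sets are not given, so their counts are no result about the carriers.

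The labels do not say what the replicate numbers mark. They were not taken as pairs, because not every pair of groups passed the limit: same-numbered arrays deviated together at r over 0.1 in 7 of 15 group pairs on type A, 18 of 28 on B and 2 of 28 on C. The median r was 0.0956, 0.127 and 0.04. Same-numbered arrays may therefore share part of their deviation, above all on type B, which holds the Slc40a1 probe set. With a replicate block, 3 carriers were called between genotypes at 0 h, 2 in wild type at 24 h, 17 in the mutant between 72 and 24 h and 2 for the difference between the genotypes in that change.

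Leaving out 1 replicate at a time, the carriers called ranged from 1 to 3 between genotypes at 0 h, 0 to 1 at 24 h, 0 to 1 at 48 h, 1 to 1 at 72 h and 1 to 2 over the oxygen times. In wild type against 0 h they ranged from 0 to 1 at 24 h, 0 to 10 at 48 h (0 without wild type 48 h replicate 1a) and 7 to 23 at 72 h (7 without wild type 0 h replicate 1b). In the mutant they ranged from 14 to 48 at 24 h, 14 to 35 at 48 h and 17 to 39 at 72 h, lowest without mutant 0 h replicate 1b, which leaves type A out of these comparisons. Between 72 and 24 h they ranged from 0 to 7 in wild type and 1 to 14 in the mutant, and from 0 to 1 for the difference between the genotypes. The lowest count in wild type between 72 and 24 h was reached without wild type 24 h replicate 1b. Leaving out that replicate takes type A out of the comparison. With 2 arrays per group, the number of arrays limits the precision, and dim probe sets are limited by background.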

Other observations

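Some carriers have symbols outside the Slc form. Of 5 tested organic anion polypeptide carriers (the Slco genes, which take up bile salts, prostaglandins and thyroid hormones), none was called in wild type at 72 h against 0 h by limma, with a median log2 difference of 0.09, and none between genotypes over the oxygen times, with a median of 0.19. The mitochondrial pyruvate carrier subunit Mpc1 gave -0.32 in wild type at 72 h (adjusted p = 0.502), and basigin (Bsg), the other chaperone of the monocarboxylate carriers, gave -0.72 (adjusted p = 0.124).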
